A study of Mus musculus with 6 samples.

Results

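The genes described here encode the subunits of voltage-gated sodium and calcium channels in cultured mouse cortical neurons in which Cugbp1 was knocked down. They were chosen by name: symbols of the platform's probe annotation that begin with Cacna, Cacnb or Cacng, or with Scn, a number and a or b, without Cacng8 and counting only exon probe sets assigned to a single gene. The rule found 36 genes of 22072 named on the array, with 1219 of 316997 single-gene probe sets. Scn2a1 of the annotation is given under its current symbol, Scn2a.

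Cortical cells came from C57BL/6 embryos at embryonic day 15, were freed of meninges, and received AraC, which kills dividing cells, on day 2 of culture. Cultures then received lentivirus for 4 hours on day 5, carrying a short hairpin RNA (shRNA) against Cugbp1 in 3 samples (Cugbp1 shRNA) or a control shRNA in 3 samples (control shRNA), and RNA was taken on day 11. Both groups share strain, AraC treatment, infection and culture time, and each array was made from 100 ng of total RNA. The promoter that drives the hairpins is not given in the sources used here, and nothing says whether the 3 samples of a group came from separate cultures, so p-values measure only the spread between these arrays. For replicates 2 and 3, in either group, the treatment is described with hairpins against Tdp-43 in place of Cugbp1, although their titles and genotypes say Cugbp1 or control. The design text calls the cells motor neurons, while titles and cell type say cortical.

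Voltage-gated channels open when the membrane is depolarised. Sodium channels, built from one large pore-forming alpha subunit (the Scn genes ending in a) with small beta subunits, carry the upstroke of the action potential and are gathered at the axon initial segment and the nodes of Ranvier. Calcium channels have a pore-forming alpha-1 subunit (Cacna1 genes), a cytoplasmic beta subunit (Cacnb) that brings it to the membrane, and an extracellular alpha-2/delta subunit (Cacna2d), and they couple firing to transmitter release and gene expression. The Cacng family is named for the gamma subunit of the muscle channel, but most of its brain members are TARPs, proteins that traffic and tune AMPA-type glutamate receptors. Cugbp1, now named Celf1, is a protein that binds RNA and acts in splicing, mRNA decay and translation.

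Celf1 itself was lower on each of the 3 Cugbp1 shRNA arrays. Its gene value, the log2 RMA value summarised over 27 probe sets, was 9.59, 9.40 and 9.33 in Cugbp1 shRNA replicates 1, 2 and 3, against 10.85, 10.79 and 10.75 in control shRNA replicates 1, 2 and 3. The groups did not overlap. The change was -1.36 (standard error 0.10, adjusted p = 0.0124, limma over 16525 genes), which left 39.1% of the control level. It kept its direction without any single array but missed the threshold without Cugbp1 shRNA replicate 2 (adjusted p = 0.0917), Cugbp1 shRNA replicate 3 (adjusted p = 0.0768) or control shRNA replicate 2 (adjusted p = 0.0943).

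The 6 arrays were close in distribution, with medians between 5.74 and 5.78, and pairs of arrays correlated at 0.953 to 0.981 over all probe sets. Neuronal markers were well represented: 122 of 125 probe sets of 8 such genes lay at or above the median of all probe sets. Of 6 motor neuron markers 48 of 76 probe sets did, with the mean of the 5 measured genes at 6.43 to 6.66 in Cugbp1 shRNA and 6.57 to 6.77 in control shRNA arrays. For skeletal and cardiac muscle, the other main site of several of these channels, 252 of 578 probe sets did. Among cortical projection neuron markers all 5 measured genes had a lower mean. Of these 0 passed (limma, 1 at an unadjusted p under 0.05), while Bcl11b and Neurod6 were lower when same-numbered arrays were paired (below, the replicate block). Of 8 GABAergic markers 3 had a higher and 5 a lower mean, with a median change of -0.05. Gad2 was higher and passed in both fits, and with the block Gad1 was higher (0.46, limma adjusted p = 0.00824) and Lhx6 lower (-0.30, adjusted p = 0.0236). Markers of astrocytes (7 measured), oligodendrocyte lineage (7), microglia (6) and fibroblasts and meninges (4) had 0 genes that passed without the block (limma; 0 at an unadjusted p under 0.05). With it Aldh1l1 of the astrocyte list (-0.21, limma adjusted p = 0.0411), C1qa of the microglia list (-0.23, adjusted p = 0.0362) and, among the motor neuron markers, Slc5a7 (-0.43, adjusted p = 0.0135) were lower. Slc5a7 read between 5.86 and 6.51, near the median of all probe set means, 5.73. In the blocked fit 23.2% of all genes passed. Of the measured markers 2 of 5 for projection neurons, 3 of 8 GABAergic, 1 of 7 astrocyte, 1 of 6 microglia and 1 of 5 motor neuron genes passed there. Of the astrocyte markers 2 had a higher and 5 a lower mean, and of the microglia markers 1 and 5. These counts were 5 and 2 for oligodendrocyte lineage, 1 and 3 for fibroblasts and meninges, and 0 and 5 for motor neurons. For the 7 measured neuronal markers they were 2 and 5. Of 5 measured endothelial and mural markers 2 had a higher and 3 a lower mean. Among these Pdgfrb was lower (-0.80, limma adjusted p = 0.0415, and 0.00318 with the block).

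Most of the channel genes gave signal in these cultures. Of their probe sets 83.7% lay at or above the median of all probe sets, against 78.7% of all single-gene probe sets. In 26 of the 36 genes more than 85% did. In 9 genes fewer than 65% did: Scn7a (3 of 31 probe sets), a sodium channel relative best known as a sodium sensor, Scn11a (9 of 32), Scn10a (14 of 30) and Scn9a (21 of 36), channels of peripheral sensory neurons, Cacna1f (28 of 59) and Cacna2d4 (27 of 45), subunits of the photoreceptor channel, Cacna1s (29 of 50) and Scn4a (19 of 32), channels of skeletal muscle, and Scn4b (5 of 8), a beta subunit. Their gene values lay between 5.95 and 7.11 on the 6 arrays, near the filter at 5.73, and values this low can understate a change. Array values of different genes come from different probes and are not compared as levels.

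Gene values were obtained for 35 members, those with at least 3 probe sets at or above the median. Cacng7, a TARP, had 2 single-gene probe sets and was not tested. Its probe set 4360289 read 12.31, 12.10 and 12.18 in Cugbp1 shRNA and 12.30, 12.23 and 12.01 in control shRNA arrays, and its probe set 4972726 read 11.10, 10.67 and 10.61 against 11.31, 10.79 and 10.69. On both probe sets the groups overlapped.

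Among the 35 genes 1 passed the test, Cacng3, which fell. The other 34 changes, on the log2 scale, lay between -0.25 and 0.43. Over all genes 3.94% were called (limma, adjusted p under 0.05), 1.10% as higher and 2.84% as lower, so 1 of 35, or 2.86%, is near the background. The members' median change was -0.0052, against -0.015 over all genes. Of the members 14 had a higher and 21 a lower mean, against 7686 and 8839 of all 16525 genes. The 95% interval of the change lay inside plus or minus 0.5 for 26 of 35 members (74.3%), against 62.6% of all genes, and inside plus or minus 1 for 34 (97.1%), against 97.0%.

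**Figure D1:**
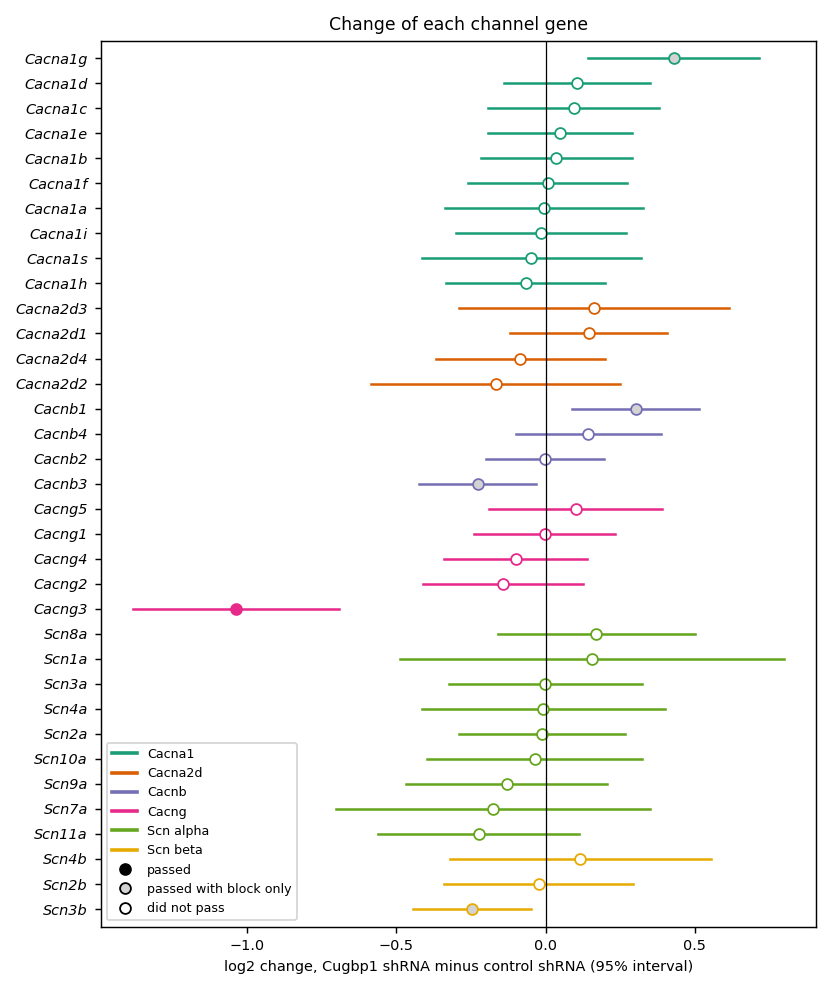
Log2 change of each of the 35 measured channel genes, Cugbp1 shRNA minus control shRNA, on the horizontal axis, with its 95% confidence interval and the genes grouped by family. Cacng3, at -1.04, is the filled point that passed the test, the 4 grey points passed with the replicate block and not without it, and the other 30 genes did not pass in either of these fits.

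Arrays with the same replicate number in the 2 groups deviated together. Their deviations from the group means correlated at 0.76, 0.50 and 0.71 for replicates 1, 2 and 3 across all genes, which are not independent replicates, and at 0.85, 0.53 and 0.86 across the 35 members. In 30 of 35 members the range between the 3 replicate numbers was larger than the difference between the shRNA groups. A range of 3 means tends to exceed a difference of 2 means even without a replicate effect. The share over all genes was not computed, so this count is a description only. When each pair of same-numbered arrays was treated as a block in limma (called here the replicate block), 5 of 35 members passed (14.3%), against 23.2% of all genes. Cacna1g and Cacnb1 were higher (2 of 35, against 9.31% of all genes), and Cacng3, Scn3b and Cacnb3 lower (3 of 35, against 13.8%). At an unadjusted p under 0.05 this fit held 11 of 35 members (31.4%), against 37.9% of all genes. The number of replicate 1 is taken by exclusion, since the labels number only replicates 2 and 3.

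**Figure D2:**
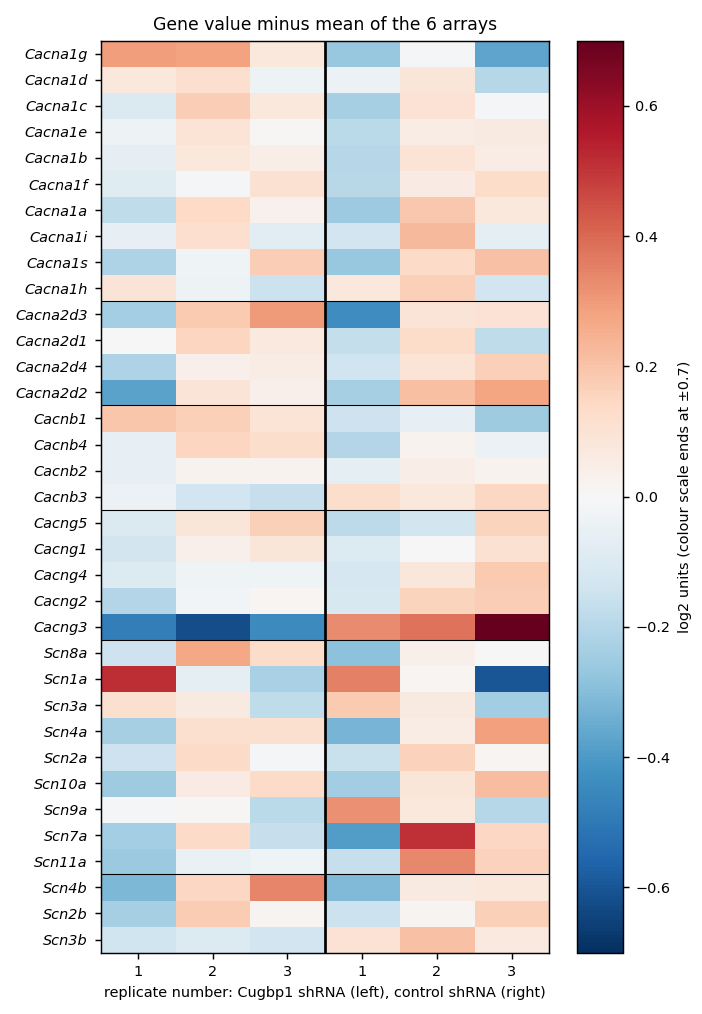
Gene value of each of the 35 measured channel genes on each array minus its mean over the 6 arrays, in log2 units, with Cugbp1 shRNA replicates 1 to 3 left of the vertical line and control shRNA replicates 1 to 3 right of it. Cacng3 is low in all 3 Cugbp1 shRNA columns, whereas Scn1a and Cacna2d3 repeat the same order over replicate numbers in both groups.

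Cacng3 encodes a TARP of forebrain neurons. Its gene value was 10.35, 10.22 and 10.39 in Cugbp1 shRNA replicates 1, 2 and 3, against 11.17, 11.22 and 11.68 in control shRNA replicates 1, 2 and 3. Every Cugbp1 shRNA array lay below every control array. The means were 10.32 ± 0.09 and 11.36 ± 0.28 (SD, n = 3 each), a log2 change of -1.04 (standard error 0.15, 95% interval -1.38 to -0.69, limma adjusted p = 0.0195), which left 48.8% of the control level. With the replicate block the adjusted p was 0.00292, and with replicates 2 and 3 alone the change was -1.15 (adjusted p = 0.0334). The call was lost without Cugbp1 shRNA replicate 2 (adjusted p = 0.106), Cugbp1 shRNA replicate 3 (adjusted p = 0.0994) or control shRNA replicate 2 (adjusted p = 0.0943), and the change ran from -1.13 to -0.88 over the 6 fits with 1 array left out.

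All 4 Cacng3 probe sets were lower without overlap between the groups, which held for 10.1% of all probe sets in this direction. Probe set 4404218 read 10.72, 10.75 and 10.80 in Cugbp1 shRNA against 11.61, 11.60 and 11.92 in control shRNA arrays. Probe set 5244433, with the largest change of the 4, read 8.71, 8.64 and 8.94 against 9.59, 10.02 and 10.31. The 4 changes lay between -1.21 and -0.95, so the fall was of similar size on all 4 measured probe sets. In these bulk samples fewer cells of a type and less RNA per cell cannot be told apart. The mean level of the 5 measured cortical projection neuron markers was 9.98 to 10.02 in Cugbp1 shRNA and 10.12 to 10.21 in control shRNA arrays, with a median change of -0.19, and its part in the fall of Cacng3 was not tested.

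The other TARPs with a gene value and the muscle gamma subunit did not follow Cacng3 past the threshold. Cacng2, the TARP stargazin, read 10.32, 10.51 and 10.54 in Cugbp1 shRNA and 10.41, 10.69 and 10.70 in control shRNA arrays, a change of -0.14 (95% interval -0.41 to 0.13, limma adjusted p = 0.606). Each Cugbp1 shRNA array lay below the control array of its number, but the groups overlapped. Cacng4 read 11.78, 11.85 and 11.85 against 11.76, 11.96 and 12.06, a change of -0.10 (-0.34 to 0.14, adjusted p = 0.713), with 7 of 7 probe sets lower in the mean and overlapping groups. Cacng5 was at 0.10 (-0.19 to 0.39), and Cacng1, the gamma subunit of the skeletal muscle calcium channel, at -0.0033 (-0.24 to 0.23). The interval of Cacng3 does not reach any of theirs, although the differences between genes were not themselves tested.

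Among the 10 alpha-1 subunits Cacna1g stood out, and the others lay between -0.07 and 0.10. Cacna1g encodes a T-type channel, opened by small depolarisations and known for rhythmic burst firing. Its gene value was 10.25, 10.24 and 10.03 in Cugbp1 shRNA replicates 1, 2 and 3, against 9.69, 9.95 and 9.59 in control shRNA replicates 1, 2 and 3, with no overlap. The change was 0.43 (standard error 0.12, 95% interval 0.14 to 0.72, limma adjusted p = 0.108), which did not pass, and it passed with the replicate block (adjusted p = 0.0107). Of its 53 probe sets 51 had a higher mean and 21 were higher without overlap, against 8.11% of all probe sets. The mean level of 8 GABAergic markers was 10.22 to 10.35 in Cugbp1 shRNA and 10.03 to 10.31 in control shRNA arrays, and its part in this difference was not tested.

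The other T-type genes did not share the value of Cacna1g. Cacna1h was at -0.07 (95% interval -0.33 to 0.20) and Cacna1i at -0.01 (-0.30 to 0.27). The channels of presynaptic terminals were close to 0: Cacna1a, of the P/Q type, at -0.0052 (-0.34 to 0.33), Cacna1b, of the N type, at 0.04 (-0.22 to 0.29), and Cacna1e, of the R type, at 0.05 (-0.19 to 0.29). The neuronal L-type genes, which link calcium entry to transcription, were higher in 3 of 3 replicate pairs by small amounts that did not pass. Cacna1c was at 0.09 (-0.19 to 0.38) and Cacna1d at 0.10 (-0.14 to 0.35, limma adjusted p = 0.705). The L-type genes of retina and muscle were at 0.0068 (Cacna1f, -0.26 to 0.27) and -0.05 (Cacna1s, -0.41 to 0.32).

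The 4 alpha-2/delta genes, whose products raise channel number at the surface and, for Cacna2d1 and Cacna2d2, bind gabapentin, did not pass with or without the block. Cacna2d1 read 11.01, 11.16 and 11.08 in Cugbp1 shRNA and 10.85, 11.14 and 10.83 in control shRNA arrays, a change of 0.14 (95% interval -0.12 to 0.41, limma adjusted p = 0.590) with overlapping groups. It and Cacna2d3, at 0.16 (-0.29 to 0.61), were higher in 3 of 3 replicate pairs. Cacna2d2, at -0.17 (-0.58 to 0.25), and Cacna2d4, at -0.08 (-0.37 to 0.20), were lower in 3 of 3. Cacna2d3 rose from replicate 1 to replicate 3 in both groups. It read 9.96, 10.38 and 10.49 in Cugbp1 shRNA replicates 1, 2 and 3 and 9.76, 10.28 and 10.30 in control shRNA replicates 1, 2 and 3.

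The cytoplasmic beta subunits differed among themselves in direction. Cacnb1, the beta subunit of the muscle channel that neurons also express, was 11.51, 11.48 and 11.41 in Cugbp1 shRNA replicates 1, 2 and 3, against 11.17, 11.26 and 11.06 in control shRNA replicates 1, 2 and 3. Its groups did not overlap, and the change was 0.30 (standard error 0.09, 95% interval 0.09 to 0.51, limma adjusted p = 0.123, or 0.0183 in the blocked fit). Of its 18 probe sets 17 had a higher mean and 12 were higher without overlap, against 8.11% of all probe sets. Each gene value is summarised from these same probe sets, so such counts add no separate support. Cacnb3, a main beta subunit of brain N-type and L-type channels, had its values in the other direction.

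Cacnb3 read 11.29, 11.20 and 11.17 in Cugbp1 shRNA replicates 1, 2 and 3, against 11.46, 11.41 and 11.48 in control shRNA replicates 1, 2 and 3, again with no overlap. The change was -0.23 (standard error 0.08, 95% interval -0.42 to -0.03, limma adjusted p = 0.197, or 0.0428 in the blocked fit). Lower means were seen in 14 of 18 Cacnb3 probe sets, and 9 were lower without overlap, against 10.1% of all probe sets. Cacnb4, the beta subunit mutated in the lethargic mouse, read 10.60, 10.81 and 10.78 in Cugbp1 shRNA and 10.46, 10.69 and 10.62 in control shRNA arrays. Its groups overlapped, with a change of 0.14 (-0.10 to 0.39, adjusted p = 0.558), and Cacnb2 was at -0.0030 (-0.20 to 0.19). Neither passed in either fit.

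**Figure D3:**
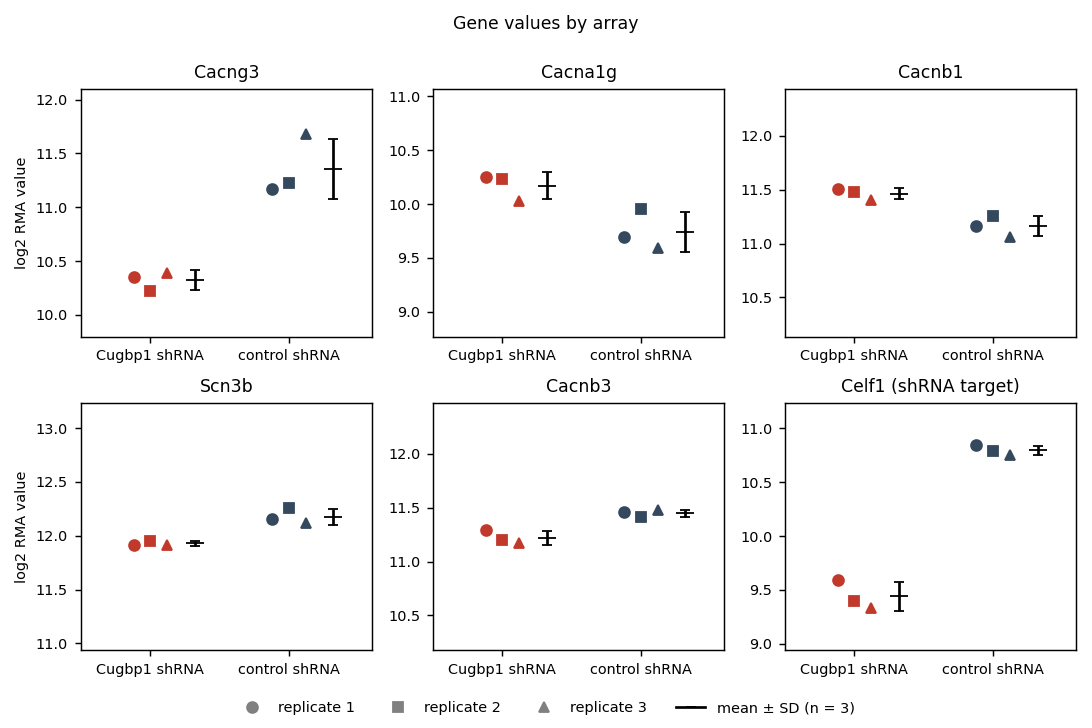
Log2 gene values by array of the 5 channel genes that passed with the replicate block and of Celf1, with Cugbp1 shRNA left of control shRNA in each panel, a symbol for each replicate and the mean ± SD (n = 3) beside it. The group means differ by 1.04 in Cacng3 and by 0.23 to 0.43 in the other 4 channel genes.

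Of the sodium channel alpha subunits none passed with or without the block (limma, 0 of 9 in both fits, and 0 of 9 at an unadjusted p under 0.05 without the block). Scn2a and Scn8a, the main channels of the axon initial segment of excitatory neurons, were at -0.01 (95% interval -0.29 to 0.27) and 0.17 (-0.16 to 0.50). Scn8a read 9.70, 10.12 and 9.98 in Cugbp1 shRNA replicates 1, 2 and 3 and 9.56, 9.88 and 9.85 in control shRNA replicates 1, 2 and 3. It was higher in 3 of 3 pairs, its groups overlapped, and it did not pass (limma adjusted p = 0.625). Scn3a, the channel of fetal neurons, was at -0.0013 (-0.32 to 0.32).

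Scn1a, the channel of fast-spiking interneurons whose loss in humans causes Dravet syndrome, differed most between replicate numbers. It read 9.36, 8.78 and 8.61 in Cugbp1 shRNA replicates 1, 2 and 3 and 9.19, 8.85 and 8.24 in control shRNA replicates 1, 2 and 3. Its change of 0.15 had an interval of -0.49 to 0.80 in the unblocked fit, the widest there of the 35 members, and a standard error of 0.28, against 0.09 with the block. The genes of sensory neurons and muscle and Scn7a were between -0.22 (Scn11a, interval -0.56 to 0.11, limma adjusted p = 0.488) and -0.0083 (Scn4a, -0.42 to 0.40). Scn11a read 6.04, 6.25 and 6.27 in Cugbp1 shRNA and 6.13, 6.63 and 6.46 in control shRNA arrays, and its groups overlapped. Scn10a was at -0.04, Scn9a at -0.13 and Scn7a, on 3 probe sets, at -0.18.

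Among the sodium channel beta subunits, Scn3b separated the groups. It read 11.91, 11.96 and 11.92 in Cugbp1 shRNA replicates 1, 2 and 3, against 12.15, 12.25 and 12.12 in control shRNA replicates 1, 2 and 3. The change was -0.25 (standard error 0.08, 95% interval -0.44 to -0.05, limma adjusted p = 0.167, or 0.0295 in the blocked fit). Of its 15 probe sets 12 had a lower mean and 9 were lower without overlap, against 10.1% of all probe sets. Scn2b, which is linked to the alpha subunit by a disulfide bond, was at -0.02 (-0.34 to 0.29), and Scn4b, on 5 probe sets, at 0.12 (-0.32 to 0.55).

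In all, 5 of 35 members had groups that did not overlap, 2 higher and 3 lower, or 14.3% against 25.2% of all genes. These were the same 5 genes that passed with the block. The same 5 had an unadjusted p under 0.05, or 14.3% against 18.8% of all genes. The family medians of the change ran from -0.10 (Cacng, 5 genes) to 0.07 (Cacnb, 4 genes), with 0.02 for Cacna1 (10 genes), 0.03 for Cacna2d (4 genes), -0.01 for the alpha (9 genes) and -0.02 for the beta subunits (3 genes) of sodium channels.

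Exon probe sets were also compared within their gene, because many channel genes carry alternative exons and Celf1 acts in splicing. Each probe set minus its gene value on the same array gives a relative level, on which 1018 probe sets of the 35 genes were tested. By limma 0 passed (36 at an unadjusted p under 0.05, or 3.54%, against 4.28% of all 244563 probe sets tested, of which 0% passed). With the replicate block 0 passed as well (85 at an unadjusted p under 0.05, or 8.35%, against 11.4%). The diffSplice test, which pools the variance over the probe sets of a gene, passed 1 of 1018 (0.0982%), against 0.0822% of all probe sets. Groups of relative levels did not overlap for 94 (9.23%), against 9.01% of all probe sets, 47 of them higher (4.62%, against 4.41%) and 47 lower (4.62%, against 4.61%). Positions of the probe sets were not used, so no exon is named.

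The 1 probe set passed by diffSplice was 5431105 of Cacna1d, the L-type channel of the lower activation voltage. Its own level was 9.59, 9.96 and 9.78 in Cugbp1 shRNA replicates 1, 2 and 3, against 7.86, 7.98 and 8.26 in control shRNA replicates 1, 2 and 3. The Cacna1d gene value over 62 probe sets was 9.44, 9.48 and 9.33 in Cugbp1 shRNA and 9.33, 9.45 and 9.16 in control shRNA arrays. Relative to the gene the probe set was thus 0.15, 0.48 and 0.44 in Cugbp1 shRNA and -1.47, -1.47 and -0.90 in control shRNA arrays. The relative change was 1.64 (standard error 0.19, 95% interval 1.19 to 2.09), or 3.12-fold.

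All 3 Cugbp1 shRNA arrays lay above all 3 control arrays by more than the range within either group. The unadjusted p was 7.64e-05, the limma adjusted p over all probe sets was 1.00 (0.272 with the replicate block), and the diffSplice adjusted p was 0.000175. Over the other settings tried the relative change lay between 1.54 and 1.86, and the adjusted p passed in diffSplice alone. The other Cacna1d probe sets had relative changes between -0.30 and 0.48.

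Cacna1d has 2 annotated starts with sequence tables here, shown because 1 of its probe sets moved apart from the rest; where that probe set lies relative to them was not analysed. Both windows are on the minus strand of GRCm38.p6, from RefSeq, at chr14:30353437-30353736 and chr14:30491107-30491406, each with 250 bases before and 50 after the start, written 5′ to 3′. Capitals mark matches on either strand to the GC box, spelled GGGCGG, the TATA box, spelled TATAAA, the CCAAT box, the CRE core, spelled TGACG, or the E-box, spelled CACGTG and searched in the same way.
Cacna1d window 30353437: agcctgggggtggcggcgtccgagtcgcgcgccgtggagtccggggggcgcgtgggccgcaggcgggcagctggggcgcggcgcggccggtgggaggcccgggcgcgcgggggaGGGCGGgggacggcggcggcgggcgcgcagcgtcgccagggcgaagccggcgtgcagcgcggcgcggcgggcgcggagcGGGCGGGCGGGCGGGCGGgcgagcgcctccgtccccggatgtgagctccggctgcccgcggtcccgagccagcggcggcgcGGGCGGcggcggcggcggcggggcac
Cacna1d window 30491107: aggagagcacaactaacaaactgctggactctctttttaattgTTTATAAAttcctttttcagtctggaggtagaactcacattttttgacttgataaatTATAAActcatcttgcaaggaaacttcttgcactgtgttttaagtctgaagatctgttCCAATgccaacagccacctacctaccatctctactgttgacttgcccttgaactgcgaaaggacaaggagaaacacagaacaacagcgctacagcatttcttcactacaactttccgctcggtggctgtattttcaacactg
The windows differ widely in composition. The first has 87.3% G and C and 6 GC boxes, some of which overlap, and the other has 40.3% G and C, 3 matches to TATAAA on either strand, of which 2 overlap, and 1 to CCAAT. Neither window matches the other motifs, which says only that those letters are not in it. The GC box, TATA box, CCAAT box, CRE core and E-box occur in 35.7%, 13.6%, 37.4%, 20.8% and 7.15% of 32851 such windows. RefSeq windows matched 28 of the 36 members, with 39 windows. Of these, 16 (41.0%) hold the GC box, 2 (5.13%) the TATA box, 10 (25.6%) the CCAAT box, 6 (15.4%) the CRE core and 0 the E-box. A match is a description of these letters and not a binding site.

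**Figure D4:**
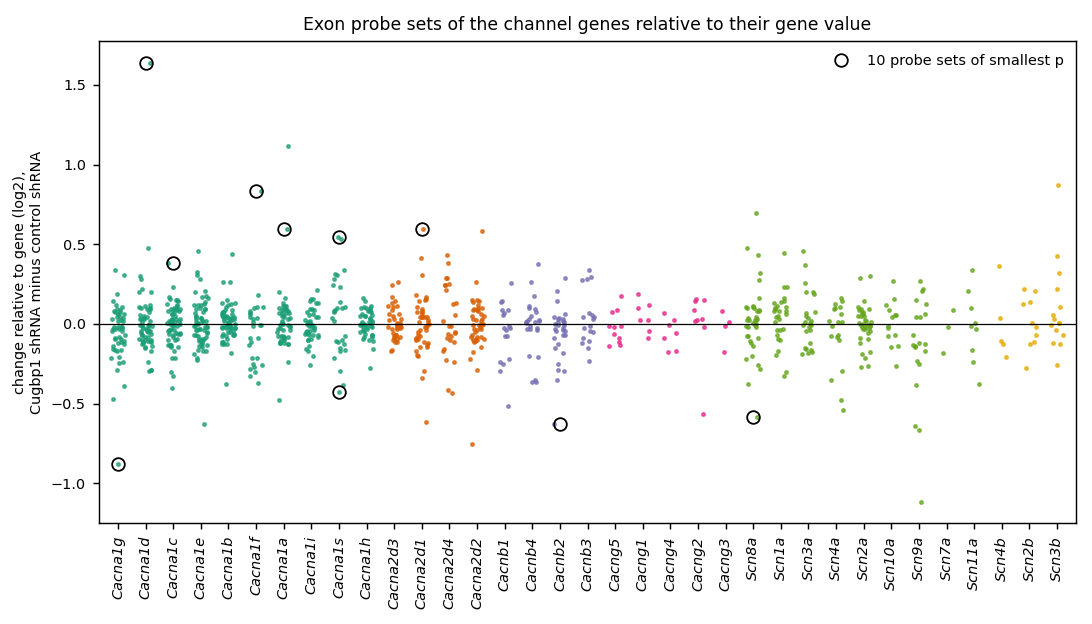
Relative change of each of the 1018 exon probe sets of the 35 channel genes, in log2 units, Cugbp1 shRNA minus control shRNA after subtraction of the gene value, with a column for each gene. Circles mark the 10 probe sets of smallest p, and 5431105 of Cacna1d lies highest, at 1.64.

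The next probe sets by p value were smaller and passed in no fit. Probe set 4924866 of Cacna1f was relatively higher by 0.84 (limma adjusted p = 1.00), with own levels of 7.01, 6.92 and 7.26 in Cugbp1 shRNA against 6.05, 6.10 and 6.51 in control shRNA arrays. Probe set 4582818 of Scn8a was relatively lower by 0.59, with -0.72, -0.56 and -0.78 against -0.25, -0.09 and 0.03. Probe set 4328264 of Cacna1g was relatively lower by 0.88, opposite to its gene. It read 7.73, 7.74 and 7.31 in Cugbp1 shRNA against 8.26, 8.43 and 7.44 in control shRNA arrays, on which the groups overlap, so part of its relative value is the gene's own higher value.

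The others of the 10 were 4540054 of Cacnb2 at -0.63, 5564113 of Cacna2d1 at 0.60, 5286410 of Cacna1a at 0.59, 5132322 and 5185095 of Cacna1s at 0.54 and -0.43, and 4396881 of Cacna1c at 0.39. For all 10 the relative levels of the groups did not overlap, as was so for 94 of 1018 member probe sets (9.23%, against 9.01% of all). The 10 were chosen by smallest p on these same levels, so this adds no support. Other probe sets had relative changes as large with larger p-values and did not pass, among them 1 of Cacna1a (1.12) and 1 of Scn9a (-1.11), which are named after their values were seen. Within Cacng3 the probe sets differed little, with relative changes between -0.17 and 0.08.

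A list of 52 symbols of channel partners and regulators was set beside the members: small GTPases and adaptors that bind calcium channels, the leak channel complex, fibroblast growth factor homologous factors, scaffolds, release proteins, kinases and calcium release channels. The list was written with earlier results of these data known. Its shares beside those of all genes therefore describe the list and are no test of it. Of the 52 symbols, 46 were measured. Limma passed 4 (8.70%, against 3.94% of all genes), and the replicate block 16, 5 higher and 11 lower (34.8%, against 23.2%). The list's median change was -0.05, and 8 of 46 differed by more than 0.5 in either direction (17.4%, against 5.55% of all genes).

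Of 4 RGK GTPases, inhibitors of calcium channels, Rem2 and Gem rose. Their products bind the channel beta subunit and reduce high-voltage-activated calcium current. Rem2 was 9.84, 9.89 and 10.00 in Cugbp1 shRNA replicates 1, 2 and 3, against 9.01, 9.05 and 9.30 in control shRNA replicates 1, 2 and 3, a change of 0.79 (standard error 0.11, limma adjusted p = 0.0183). Gem was 7.88, 8.25 and 8.09 against 7.18, 7.50 and 7.26, a change of 0.76 (standard error 0.13, adjusted p = 0.0300). Neither gene's groups overlapped, and both are also known to be induced by neuronal activity. The other RGK genes, Rem1 at -0.18 (adjusted p = 0.659) and Rrad at 0.07 (adjusted p = 0.890), did not pass.

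The calls of Rem2 and Gem were lost without Cugbp1 shRNA replicate 2 (adjusted p = 0.105 and 0.134), Cugbp1 shRNA replicate 3 (0.104 and 0.135) or control shRNA replicate 2 (0.101 and 0.0943), and that of Gem also without control shRNA replicate 3 (adjusted p = 0.0770). Gem also missed the threshold with no filter on low values (change 0.61, adjusted p = 0.0997) and with 1 probe set allowed per gene (adjusted p = 0.0549). Stac and Stac2, adaptors that promote surface expression of L-type channels, had values in the other direction. Stac was 7.13, 7.53 and 7.39 in Cugbp1 shRNA against 7.88, 8.13 and 7.88 in control shRNA arrays, a change of -0.61 (limma adjusted p = 0.0504, and 0.00421 with the replicate block). Stac2 was 7.50, 7.66 and 7.69 against 8.07, 8.48 and 8.11, a change of -0.60 (adjusted p = 0.0509, and 0.00703 with the block). The groups of both did not overlap. Stac3, the muscle member, was at 0.18 and did not pass.

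**Figure D5:**
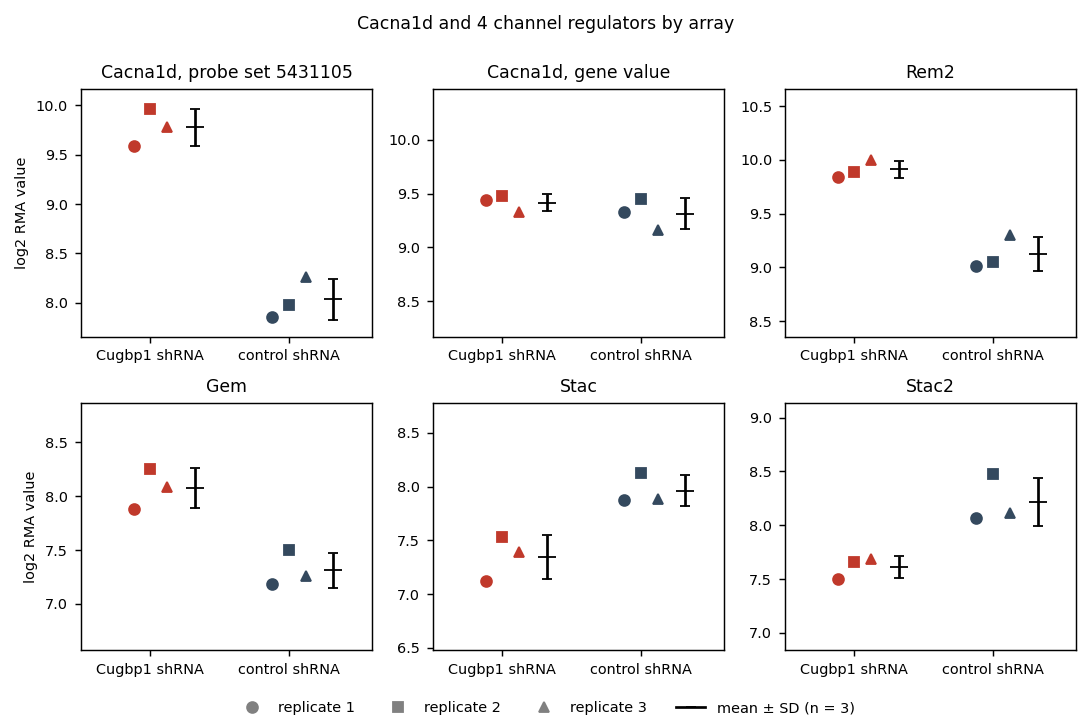
Log2 values by array of probe set 5431105 of Cacna1d, of the Cacna1d gene and of the calcium channel regulators Rem2, Gem, Stac and Stac2, with Cugbp1 shRNA left of control shRNA, a symbol for each replicate and the mean ± SD (n = 3) beside it. The groups overlap only in the Cacna1d gene value.

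Of the other partners, Stx1a, a syntaxin that binds presynaptic calcium channels, rose by 0.88 (limma adjusted p = 0.0374), and Thbs1, a ligand of the alpha-2/delta subunit, fell by 0.72 (adjusted p = 0.0444). Both calls passed in 1 of the 6 fits with 1 array left out, with adjusted p up to 0.149 for Stx1a and 0.176 for Thbs1. For both genes the passing fit was the one without control shRNA replicate 1. Thbs1 also missed the threshold with quantile normalization (limma adjusted p = 0.0558), median centring (0.0505), no filter (0.0505) and means of probe sets as gene values (0.0662). With 1 probe set allowed per gene both missed it (limma adjusted p = 0.0656 for Stx1a and 0.0761 for Thbs1). Nalcn, the sodium leak channel that sets resting excitability, was at -0.42 and did not pass in the unblocked fit (adjusted p = 0.0810, or 0.00681 in the blocked fit), with values of 9.17, 9.39 and 9.41 in Cugbp1 shRNA against 9.62, 9.84 and 9.76 in control shRNA arrays. Its partner Unc79, measured where Unc80 was not, was at 0.05 (adjusted p = 0.849). Akap5, which anchors kinase and phosphatase to L-type channels, was at -0.38 (adjusted p = 0.0633, or 0.00745 in the blocked fit), and Akap7 at 0.45 (0.0693, or 0.0115 in the blocked fit). Camk2a, a kinase that acts on both channel families, was at -0.58 (adjusted p = 0.0736, or 0.00538 in the blocked fit).

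The homologous factors, which bind the tail of sodium channel alpha subunits, were uneven. Fgf14 was at -0.30 and Fgf11 at -0.50 (adjusted p = 0.148 and 0.167, and 0.0319 and 0.00674 with the block), while Fgf12, at -0.06, and Fgf13, at 0.07, did not pass in either fit. The scaffold Ank3, which holds sodium channels at the axon initial segment, was at -0.17 (adjusted p = 0.345), and its partners Sptbn4, Nfasc and Nrcam were at 0.04, -0.12 and -0.11. None of these 4 passed with the block either. Among the release-site proteins that tether calcium channels, Rims1 and Rims2 were at 0.07 and -0.05, and Rimbp2, at 0.23 (adjusted p = 0.426), passed with the block (0.0410). Of the remaining partners Camk2d (-0.32), the calcium release channel Ryr1 (-0.43) and the ubiquitin ligase Nedd4l (-0.20) were lower with the block (limma adjusted p = 0.0129, 0.0192 and 0.0471) and did not pass without it.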

How the data were processed

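The 6 arrays were Affymetrix mouse exon arrays, 3 for each shRNA. Each deposited number is a log2 value for 1 probe set, made by the authors with RMA in Affymetrix Expression Console at the level of all exons, per the labels. The submitters' processing notes name the same tools and mm9, with no versions. Arrays hold no read depth, and their number limits the precision. The members and gene lists were chosen with earlier results of these data known.

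Of 1195555 probe sets, 316997 carried 1 gene symbol in the platform's annotation, 6571 carried several and 871987 were not listed. Of 22264 symbols 4213 were updated and 17988 were current in the RefSeq gene table (GRCm38.p6), which was used for names only. Probe sets at or above 5.73, the median of all probe set means, were kept, and genes with at least 3 of them were summarised by median polish. Gene values, and each probe set minus its gene value, were fitted with limma 3.58.1 in R 4.3.3 (eBayes, Benjamini-Hochberg over all genes or all probe sets, threshold 0.05, two-sided). The fits were run on simulated data with independent noise on each array. These held no shared deviation of same-numbered arrays, so they do not show how the fits behave with it. From the relative test 43 probe sets equal to their gene value on every array were left out. The diffSplice test was kept as an alternative, because probe sets of a gene are not replicates. Exact permutation of 3 against 3 arrays cannot go below 0.1 and was not used.

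Same-numbered arrays deviated together (correlations of 0.763, 0.504 and 0.715 across genes, other pairings from -0.701 to 0.160). The replicate number was therefore used to pair the groups in an alternative fit, the replicate block. The number comes from the titles, with replicate 1 taken by exclusion. The fit without the block is the one reported, and the blocked value stands beside a named result whose call it changes.

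Per-array values are given for the members called in either fit, for the members of next smallest p up to 12 and for the member of smallest p in each family. The associated genes called, the next 6 by p and the 10 probe sets of smallest p are named, and other genes by role. Alternatives were the block, array weights, a trended robust prior, filters, gene summaries, normalizations, the threshold, replicates 2 and 3 alone, and each array left out. Keeping the constant probe sets was added after seeing the data. Sequences came from RefSeq (GRCm38.p6).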

Additional observations from a re-analysis of the deposited data

How the results depend on the processing

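Celf1, the 12 channel genes of smallest p, the 10 associated genes of smallest p and probe set 5431105 kept their direction under the alternatives run, and other named genes were not run under them. The number of channel genes called was 1, and it was 5 with array weights (1 higher, 4 lower), 3 with a trended robust prior (1 higher, 2 lower) and 5 with the replicate block (2 higher, 3 lower), while quantile normalization, median centring, mean summaries and no filter kept it at 1. The 5 genes with array weights were not the 5 with the block. With array weights Scn11a passed (-0.35, limma adjusted p = 0.0227) and Cacna1g did not (0.28, adjusted p = 0.0606). Over all genes 651 were called, against 1345 at an adjusted p under 0.10, 4226 with array weights, 260 with 1 probe set allowed per gene, 1089 with the trended robust prior, 1039 with the filter at the 75th percentile and 3827 with the replicate block. Of the associated genes 4 were called, against 10, 14, 1, 10, 8 and 16 under the same alternatives in that order, and 2 with no filter. Relative probe sets of the members had 0 calls, and 1 with diffSplice; keeping the constant probe sets or adding the replicate block left this at 0. With 1 array left out in turn, calls ranged over 0 to 648 of all genes, 0 to 1 of the members, 0 to 6 of the associated genes and 0 of the member probe sets, the Celf1 change over -1.43 to -1.30, and the members' median, close to 0, over -0.056 to 0.058, so that its sign is not settled. The 0 calls over all genes came without Cugbp1 shRNA replicate 2, Cugbp1 shRNA replicate 3 or control shRNA replicate 2 (limma; 2121, 2110 and 2291 genes at an unadjusted p under 0.05). The count was 227 without Cugbp1 shRNA replicate 1 and 166 without control shRNA replicate 3. Their cause was not tested. Members with few probe sets above the filter, such as Scn7a with 3, limit what can be seen of channels of other tissues.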
